A study of Mus musculus with 30 samples.

Results

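The 3 libraries of NIH3T3-CG cells transfected with a Jun plasmid were compared directly with the 3 libraries of the same cells transfected with an Egr1 plasmid, which makes 6 of the 30 libraries in the series. Membership was taken from the submitters' labels. NIH3T3 cells are fibroblasts, an established line from mouse embryos, and what CG stands for is not explained. The series measured bulk mRNA after delivery of single transcription factors, in a study whose title concerns cell-to-cell differences in the Hedgehog response, and the labels mention no Hedgehog ligand. The Jun and Egr1 groups come from 1 experiment and share 3 control-plasmid libraries, which enter the fit for their spread and are used here to place each gene. The labels give no time after transfection, dose, passage or origin of the replicates, so the p-values cover the spread between libraries alone, and that spread may be technical.

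Jun and Egr1 are immediate early factors, made within minutes when serum or growth factors reach a resting fibroblast. Jun is a basic leucine zipper protein that pairs with Fos, Jun or ATF proteins to form AP-1, a dimer known for binding the heptamer TGAGTCA and for activating matrix protease genes. Egr1 is a zinc finger protein that binds GC-rich sites and is restrained by the corepressors Nab1 and Nab2, of which it is known to induce Nab2.

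Libraries held 25329478 to 33085283 estimated counts with Jun, 29452035 to 37068611 with Egr1 and 28567590 to 36470538 in the controls. Levels below are CPM, counts scaled to the size of the library with TMM factors (trimmed mean of M values). Fibroblast markers summed to 21051 to 22486 CPM with Jun and to 20907 to 21205 CPM with Egr1. An added mScarlet sequence stood at 2740 to 3318 CPM with Jun, 1941 to 2918 CPM with Egr1 and 30755 to 39060 CPM in the controls, and the labels do not say what carried it. Egr1 replicate 3 stood apart from every other library in keratin and other epithelial genes, with a summed level of 360 CPM over 16 tested genes against 22.5 to 41.7 CPM in the other two Egr1 libraries and 9.52 to 15.6 CPM with Jun. Results are therefore given with and without it.

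Jun and Egr1 transfection separated few genes. Of 14508 tested genes, 65 differed (0.448%, edgeR quasi-likelihood test, adjusted p under 0.05 by Benjamini-Hochberg), 16 of them higher with Jun (0.11%) and 49 higher with Egr1 (0.338%). A difference over 2-fold was fitted for 33 of the 65, 6 higher with Jun and 27 higher with Egr1. In all 65 the 3 Jun and the 3 Egr1 libraries did not overlap, a pattern seen in 2562 tested genes (17.7%), 1245 higher with Jun (8.58%) and 1317 higher with Egr1 (9.08%). At an unadjusted p under 0.05 the count was 1729 (11.9%). The higher group stayed under 5 CPM in 24 of the 65, so much of the list consists of scarce transcripts. Without Egr1 replicate 3, 119 of 14973 tested genes differed (0.795%), 30 higher with Jun and 89 higher with Egr1. DESeq2 called 414 of 16833 genes (2.46%). Without Egr1 replicate 3 and the controls, a setting added after the data were seen, edgeR called 540 of 14354 (3.76%).

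**Figure D1:**
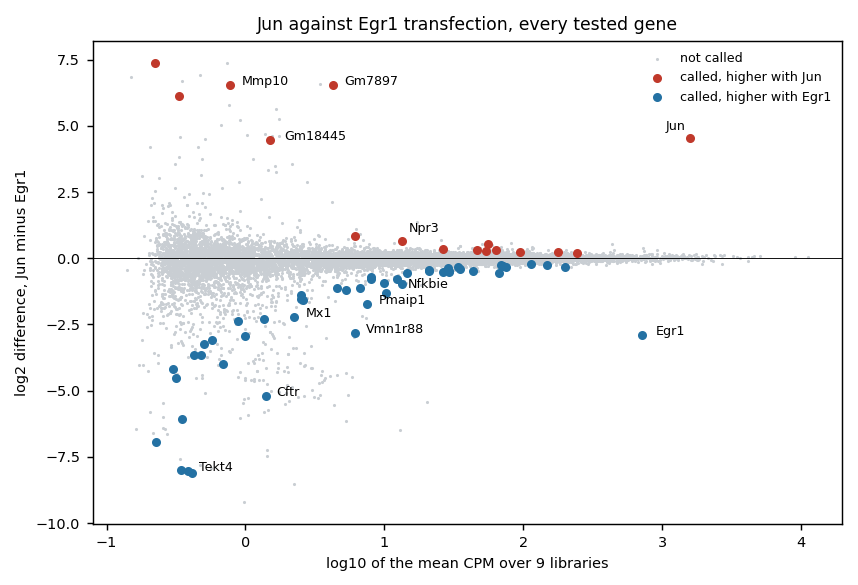
Log2 difference (Jun minus Egr1, vertical axis) against the log10 of the mean CPM over 9 libraries (horizontal axis) for all 14508 tested genes, each point 1 gene. The 16 genes higher with Jun (red) and the 49 higher with Egr1 (blue) include Jun and Egr1 themselves at the right and a cluster of scarce transcripts at the left.

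The call count depended on single libraries. It was 21, 25 and 119 without Egr1 replicate 1, 2 or 3, 26, 36 and 17 without Jun replicate 1, 2 or 3, and 41, 141 and 52 without control replicate 1, 2 or 3. Of the 65 genes, 15 were called in all 9 of these fits: Jun, Gm7897 and Gm18445 on the Jun side, and Egr1, Nfkbie, Cacnb1, Cd80, Inka2, Klf10, Psrc1, Vmn1r88, Azin1, Cftr, Gm7361 and Mx1 on the Egr1 side. Gm7361 has 39.5% unique 31-mers, so its reads may be shared with related genes. The direction of all 65 was the same in every alternative in which they were tested. For other genes the number of these 9 fits that kept the call is given beside the gene.

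Each delivered factor marked its own group. Jun (ENSMUSG00000052684, chromosome 4, 95049034 to 95052222, minus strand, a gene of 1 exon) stood at 3857, 4693 and 4654 CPM with Jun, 197, 180.1 and 194 CPM with Egr1 and 208, 193 and 197 CPM in the controls. All Jun libraries lay far above the 6 others, and the Egr1 libraries overlapped the controls. The difference was 23.1-fold (log2 4.53, SE 0.0809, adjusted p = 1.71e-11). Egr1 (ENSMUSG00000038418, chromosome 18, 34859823 to 34864984, plus strand) stood at 1973, 1727 and 1514 CPM with Egr1, 196, 246 and 254 CPM with Jun and 189, 158 and 201 CPM in the controls. The Egr1 libraries lay above all others, with replicate 3 the lowest of them, and the difference was 7.5-fold (log2 -2.91, SE 0.151, adjusted p = 0.00047). The Egr1 difference lay in 1 annotated transcript, of 3 exons and 3036 bases, which took 1435 to 1902 CPM with Egr1 and 135 to 168 CPM with Jun. The other transcript of Egr1, of 2 exons and 4484 bases, held 52.98 to 79.9 CPM across the 6 libraries.

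Among partners and relatives of the delivered factors, edgeR called the delivered genes alone. Of 15 tested AP-1 subunits and related leucine zipper genes, 1 was called, Jun itself. Fos, the classical partner of Jun, was at 6.07, 5.71 and 7.400 CPM with Jun and 4.29, 6.24 and 9.92 CPM with Egr1 (log2 -0.09, SE 0.371, adjusted p = 0.955), and the groups overlapped. Without Egr1 replicate 3 its difference lay the other way (log2 0.28, adjusted p = 0.797). Atf3, a stress-induced repressor and dimer partner, was at 1.23, 2.395 and 1.62 CPM with Jun and 4.69, 3.05 and 4.396 CPM with Egr1, without overlap, and did not pass (log2 -1.21, SE 0.334, adjusted p = 0.188). Mafk, a small Maf protein, was at 28.3, 34.6 and 34.2 CPM against 42.9, 40.2 and 37.2 CPM, also without overlap (adjusted p = 0.143). DESeq2 called Atf3 and Mafk, both higher with Egr1. Of 5 tested Egr and Nab genes, Egr1 alone was called. Nab1 was at 113, 109 and 109 CPM with Jun and 105, 111 and 98.5 CPM with Egr1, and Nab2 at 107, 120.3 and 118 CPM against 118, 114 and 127 CPM, and both overlapped between the groups. Egr3, a close relative of Egr1, was at 51.9, 61.2 and 60.7 CPM with Jun and 43.5, 49.2 and 50.4 CPM with Egr1, without overlap, and did not pass (adjusted p = 0.399).

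Of the genes higher with Jun, 2 with scarce transcripts held AP-1 letters just before their start. Mmp10 encodes stromelysin 2, a matrix metalloproteinase of the kind AP-1 is known to activate, and Xirp2 encodes a muscle protein that binds actin. The stretches before their RefSeq starts (GRCm38.p6, Mmp10 at chr9:7502092-7502341 and Xirp2 at chr2:67445752-67446001, both plus strand) are shown because they hold TGANTCA, the AP-1 heptamer with any base at its centre, in capitals.
Mmp10: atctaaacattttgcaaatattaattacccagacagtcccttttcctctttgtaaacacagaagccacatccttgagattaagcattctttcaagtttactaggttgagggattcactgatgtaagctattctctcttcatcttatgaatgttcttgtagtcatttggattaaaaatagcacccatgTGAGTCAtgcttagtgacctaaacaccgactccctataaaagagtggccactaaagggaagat
Xirp2: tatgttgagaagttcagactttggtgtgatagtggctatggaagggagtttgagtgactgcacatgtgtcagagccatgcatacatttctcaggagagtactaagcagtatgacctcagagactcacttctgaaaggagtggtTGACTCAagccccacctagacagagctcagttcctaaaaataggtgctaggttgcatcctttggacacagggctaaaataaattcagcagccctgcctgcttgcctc
The letters begin 63 bases before the start of Mmp10 and 107 bases before that of Xirp2. Either strand counted as a match, over windows that also reach a short way past the start. TGANTCA was found in 2 of 10 windows of the genes higher with Jun (9 of 16 genes matched by symbol), 8 of 46 windows of the genes higher with Egr1 (32 of 49 genes matched), 5.53% of the 13673 windows of tested genes and 7.81% of all 32851 windows. The narrower words TGAGTCA and TGACTCA, tried after these counts were seen, gave 2 of 10, 7 of 46, 4.01% and 5.2%. Genes with several windows count more than once, and a match describes letters, not binding.

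Mmp10 (chromosome 9, 7502352 to 7510240, 88.1% unique 31-mers, so reads may be shared with a related gene) stood at 2.02, 2.23 and 2.59 CPM with Jun, 0, 0 and 0.0682 CPM with Egr1 and 0, 0.108 and 0 CPM in the controls. It had 198 counts over the Jun libraries and 2 over the Egr1 libraries, a ratio of 114 after scaling (95% exact interval 31.2 to 949, counting error only, adjusted p = 0.0167, called in 4 of 9). Xirp2 stood at 0.796, 1.28 and 0.849 CPM with Jun and 0.0284, 0 and 0 CPM with Egr1, with 86 counts against 1 (ratio 99.1, interval 17.3 to 3959, adjusted p = 0.0075, called in 4 of 9). Kprp, a proline-rich protein of keratinocytes, stood at 0.643, 0.689 and 0.647 CPM with Jun and at 0 in every Egr1 library, at least 22.3-fold higher against 3 counts over the group (adjusted p = 0.0179, called in 4 of 9). Every Jun library was above every Egr1 and control library in all 3 genes. Xirp2 and Kprp were named after their values were seen.

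A cluster on chromosome 1 held 3 of the 16 genes higher with Jun. Gm7897, Ifi202b and Gm18445 lie within 172174 bases (173829799 to 174001972) among the Ifi200 genes, a family of interferon-inducible DNA sensors. Gm7897, an unprocessed pseudogene named after its values were seen, stood at 12.5, 13.4 and 11.5 CPM with Jun, 0.199, 0.0545 and 0.136 CPM with Egr1 and 0.115, 0.108 and 0.191 CPM in the controls (93.8-fold, log2 6.55, SE 0.326, adjusted p = 2.94e-07). Gm18445, another pseudogene named in the same way (75.3% unique 31-mers), stood at 5.05, 3.18 and 3.44 CPM with Jun and 0.256, 0.191 and 0.0682 CPM with Egr1 (log2 4.45, SE 0.462, adjusted p = 0.000714). Ifi202b, a short member of the family, stood at 60.01, 74.6 and 68.99 CPM with Jun, 46.5, 45.5 and 49.1 CPM with Egr1 and 57.8, 54.7 and 47.6 CPM in the controls (log2 0.53, SE 0.0862, adjusted p = 0.0236, called in 5 of 9). No Jun library overlapped an Egr1 library in these 3 genes. Within 250 kb of the cluster 12 genes were tested, the 3 called genes that define it among them, and 9 were not called. Of the 12, 11 had a difference above 0 and 6 an unadjusted p under 0.05, and both counts include the 3 called genes. The others at that p were Ifi204 (65.7% unique 31-mers), Ifi211 (21.1%) and Ifi203. Neighbours that did not pass include Ifi203 at 13.6, 18.7 and 18.4 CPM against 14.8, 12.1 and 12.1 CPM (78.2% unique 31-mers), where the groups overlapped. Most of the family shares sequence, so reads may have been divided between its members.

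The remaining genes higher with Jun differed by less than 2-fold. Mustn1, a nuclear protein of muscle and cartilage, stood at 9.37, 9.22 and 8.05 CPM with Jun and 4.44, 5.06 and 5.45 CPM with Egr1 (log2 0.83, SE 0.137, adjusted p = 0.018, called in 4 of 9). Npr3, the clearance receptor of natriuretic peptides, stood at 17.3, 17.8 and 17.1 CPM against 10.8, 12.3 and 10.3 CPM (log2 0.64, SE 0.105, adjusted p = 0.0179, called in 5 of 9). Thsd7a, a membrane protein with thrombospondin repeats, stood at 73.7, 76.7 and 77.04 CPM against 57.97, 61.02 and 61.8 CPM (log2 0.33, SE 0.0495, adjusted p = 0.00984, called in 5 of 9). The 3 genes had control levels near those with Egr1. Smaller differences (log2 0.22 to 0.37) were called for Adarb1, an RNA-editing deaminase, Hgsnat, a lysosomal enzyme, Lrp12, a receptor of the LDL receptor family, Plxna1, a semaphorin receptor, Anxa3, an annexin, and Ltbp1, which holds latent TGF-beta in the matrix. Each of these 6 was called in 2 or 3 of the 9 fits.

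**Figure D2:**
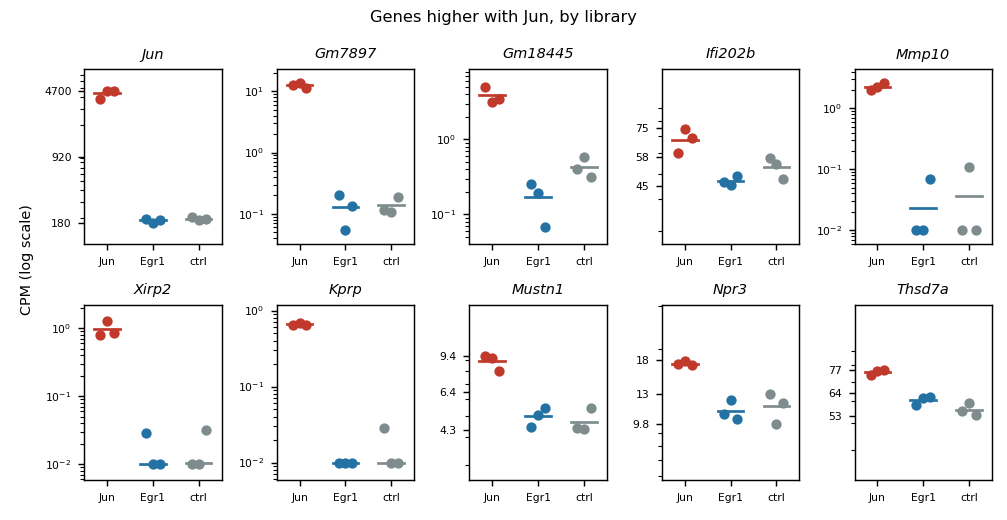
CPM (log scale, vertical axes) of 10 genes higher with Jun in the 3 Jun (red), 3 Egr1 (blue) and 3 control (grey) libraries, with 1 point per library and a line at each mean; values of 0 are drawn at 0.01. Each panel has its own axis, and in each the 3 Jun points lie above the 3 Egr1 points.

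On the Egr1 side, 2 genes stood out that fibroblasts express little. Cftr (chromosome 6, 18170687 to 18322768), the epithelial chloride channel, stood at 4.49, 3.35 and 3.95 CPM with Egr1, 0.0919, 0.0984 and 0.121 CPM with Jun and 0.201, 0.1796 and 0.0636 CPM in the controls (36.8-fold higher with Egr1, log2 -5.20, SE 0.438, adjusted p = 9.34e-05). Vmn1r88 (chromosome 7, 13159568 to 13185864), a pheromone receptor gene with 72.3% unique 31-mers, stood at 16.2, 12.9 and 13.2 CPM with Egr1, 1.93, 2.26 and 1.698 CPM with Jun and 2.21, 2.48 and 2.16 CPM in the controls (log2 -2.84, SE 0.153, adjusted p = 5.28e-07). In both genes all Egr1 libraries lay above the 6 others, and replicate 3 was the middle Egr1 value. Cftr was named after its values were seen. Krt9, a keratin of palm and sole skin, stood at 1.22, 0.735 and 1.12 CPM with Egr1 and 0, 0.0328 and 0 CPM with Jun, with 103 counts against 1 (ratio 89.4, interval 15.7 to 3565, adjusted p = 0.00719, called in 6 of 9). Tekt4, a tektin of cilia and flagella, stood at 1.11, 1.198 and 0.784 CPM with Egr1 and at 0 in every Jun library, at least 30.7-fold higher (adjusted p = 0.00638, called in 7 of 9). Krt9 and Tekt4 were named after their values were seen.

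The windows of 3 genes higher with Egr1 hold the EGR letters GCGNGGGCG on either strand, and they are printed with these letters, and any TGANTCA, in capitals (GRCm38.p6, plus strand, Cftr at chr6:18170437-18170686, Gadd45b at chr10:80929841-80930090 and P2rx7 at chr5:122643677-122643926).
Cftr: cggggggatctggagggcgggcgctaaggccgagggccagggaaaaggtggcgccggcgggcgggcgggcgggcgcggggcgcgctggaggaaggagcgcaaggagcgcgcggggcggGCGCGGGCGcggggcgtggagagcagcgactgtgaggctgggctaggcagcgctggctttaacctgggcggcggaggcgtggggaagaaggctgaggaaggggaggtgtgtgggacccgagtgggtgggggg
Gadd45b: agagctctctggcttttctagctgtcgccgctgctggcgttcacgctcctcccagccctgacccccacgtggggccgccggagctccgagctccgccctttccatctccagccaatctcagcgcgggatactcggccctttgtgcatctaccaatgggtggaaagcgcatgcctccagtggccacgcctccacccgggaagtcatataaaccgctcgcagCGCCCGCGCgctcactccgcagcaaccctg
P2rx7: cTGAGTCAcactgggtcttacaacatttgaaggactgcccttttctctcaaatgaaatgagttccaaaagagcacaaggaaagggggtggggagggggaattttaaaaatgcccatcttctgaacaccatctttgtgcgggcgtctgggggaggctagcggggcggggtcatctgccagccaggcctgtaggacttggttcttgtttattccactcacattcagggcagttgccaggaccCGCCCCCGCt
These letters begin 132 bases before the start of Cftr and 30 before that of Gadd45b. They were found in 3 of 46 windows of genes higher with Egr1 (6.52%) and 0 of 10 windows of genes higher with Jun. The share on the Egr1 side was below the 9.79% of windows of tested genes and above the 5.55% of all windows. The narrower words GCGTGGGCG and GCGGGGGCG, also tried afterwards, were found in 1 of 46 windows on the Egr1 side, that of P2rx7, 0 of 10 on the Jun side, 6.08% of windows of tested genes and 3.47% of all windows.

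Mx1, Nfkbie and Sphk1, from 3 different pathways, were higher with Egr1. Mx1, an interferon-induced GTPase, stood at 4.92, 4.11 and 4.33 CPM with Egr1 and 1.103, 0.8203 and 0.9301 CPM with Jun (log2 -2.22, SE 0.252, adjusted p = 0.00131). It was the only one of 34 tested interferon response genes called by edgeR, while DESeq2 also called Ifit2. Most of that list lay the other way, with 28 of the 34 higher with Jun, 6 higher with Egr1 and a median log2 difference of 0.19. Nfkbie, an inhibitor of NF-kB, stood at 18, 16.3 and 16.4 CPM against 10.2, 9.45 and 10.03 CPM (log2 -0.77, SE 0.08497, adjusted p = 0.00103), the only one of 20 tested NF-kB and inflammatory genes called by edgeR, while DESeq2 also called Nfkb2 and Relb. Sphk1, the kinase that makes sphingosine 1-phosphate, stood at 7.96, 7.05 and 7.02 CPM against 4.105, 2.82 and 3.24 CPM (log2 -1.11, SE 0.181, adjusted p = 0.0179, called in 5 of 9). The Jun and Egr1 libraries did not overlap in these 3 genes, and the control means were nearer to Jun.

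Other genes called higher with Egr1 encode channel subunits, surface proteins and scaffolds. Cacnb1, a regulatory subunit of voltage-gated calcium channels, stood at 22.8, 18.3 and 16.9 CPM with Egr1 and 9.22, 9.02 and 11.2 CPM with Jun (log2 -0.98, SE 0.121, adjusted p = 0.00258). Cacna1g, the pore of a T-type calcium channel, stood at 5.404, 4.66 and 4.57 CPM against 1.75, 1.18 and 1.94 CPM (adjusted p = 0.0283, called in 3 of 9). Epn3, an endocytic adaptor whose gene lies 15401 bases from Cacna1g on chromosome 11, stood at 4.78, 4.28 and 4.498 CPM against 1.16, 1.48 and 1.98 CPM (adjusted p = 0.0185, called in 4 of 9). Cacna1g and Epn3, named after their values were seen, had nearly equal differences, log2 -1.59 and -1.55. Cd80, a costimulatory ligand of T cells, stood at 12.7, 14.8 and 14.3 CPM with Egr1 and 7.38, 7.97 and 6.63 CPM with Jun (log2 -0.92, SE 0.107, adjusted p = 0.00138). Inka2, an inhibitor of the kinase Pak4, stood at 11.04, 9.803 and 9.54 CPM against 5.82, 6.005 and 5.702 CPM (log2 -0.79, SE 0.103, adjusted p = 0.00341). Prx and Magi2, which encode scaffold proteins, and Plin4, which coats lipid droplets, differed by log2 -0.69, -0.55 and -0.53 and were called in 1, 3 and 5 of the 9 fits.

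In 12 of the 49 genes higher with Egr1, the Jun libraries also fell below the controls by edgeR, and 5 of them are described here. P2rx7, an ATP-gated channel, stood at 11.97, 9.91 and 9.201 CPM with Egr1, 3.52, 3.81 and 5.14 CPM with Jun and 14.4, 20.7 and 13.7 CPM in the controls (Jun minus Egr1 log2 -1.33, SE 0.194, adjusted p = 0.0179, called in 5 of 9). Id3, an inhibitor of bHLH factors induced by BMP, stood at 5.23, 6.07 and 5.52, 2.604, 2.297 and 2.35 and 5.22, 8.62 and 9.42 CPM in the same order (log2 -1.21, SE 0.203, adjusted p = 0.0192, called in 4 of 9). Eng, endoglin, a coreceptor for TGF-beta ligands, stood at 7.51, 5.99 and 5.83, 2.42, 3.12 and 3.36 and 10.9, 13.1 and 8.18 CPM (log2 -1.12, SE 0.189, adjusted p = 0.0195, called in 3 of 9). In these 3 genes the Jun libraries were the lowest of all 9. Pmaip1, which encodes the p53-induced death protein Noxa, stood at 13.9, 10.8 and 8.14 CPM with Egr1, 2.76, 3.71 and 3.52 CPM with Jun and 7.95, 9.99 and 6.94 CPM in the controls (log2 -1.72, SE 0.208, adjusted p = 0.00341, called in 8 of 9). Eda2r, a death receptor induced by p53, stood at 33.7, 32.2 and 28.5, 23.00, 22.3 and 22.7 and 31.9, 37.4 and 32.6 CPM (log2 -0.47, SE 0.0781, adjusted p = 0.018, called in 4 of 9). With Jun minus the controls, the log2 difference was -1.97 for P2rx7, -1.68 for Id3, -1.86 for Eng, -1.32 for Pmaip1 and -0.58 for Eda2r, with adjusted p of 0.00173, 0.00249, 0.000894, 0.0158 and 0.00421. The other 7, Azin1, Tceal9, Ifitm10, Txndc2, Gem, Chd2 and Bcam, differed by log2 -3.27 to -0.17. None of the 12 passed with Egr1 against the same controls, which the comparisons share. The 49 genes were called in part for low levels in the same Jun libraries. The values of Jun against the controls are therefore not separate support.

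**Figure D3:**
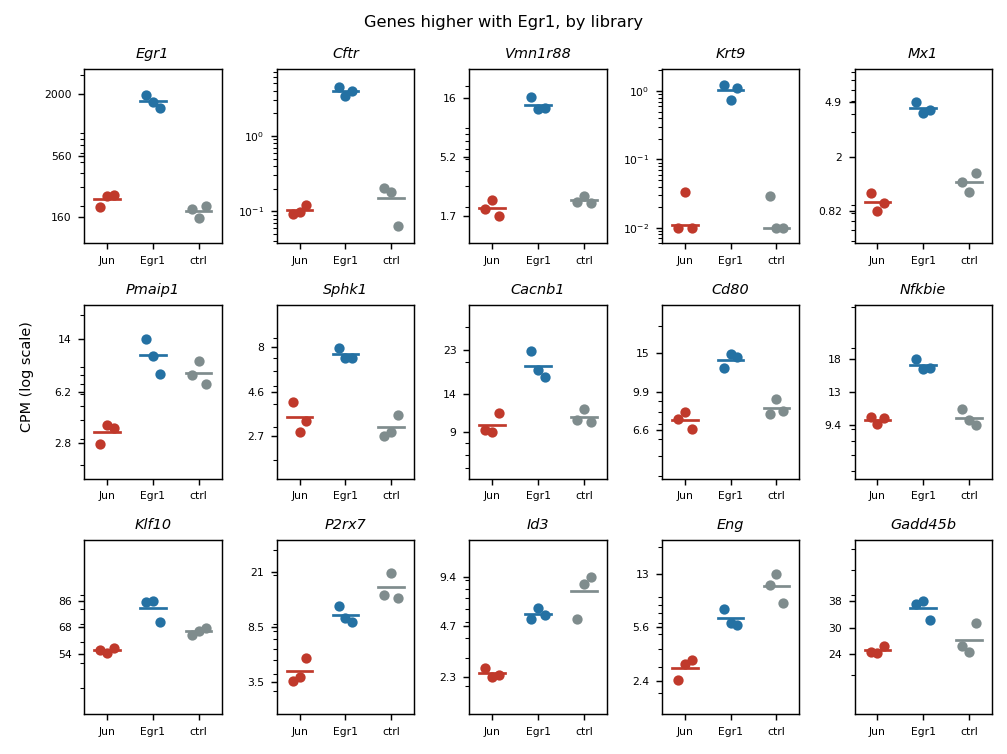
CPM (log scale, vertical axes) of 15 genes higher with Egr1 in the 3 Jun (red), 3 Egr1 (blue) and 3 control (grey) libraries, with 1 point per library and a line at each mean; values of 0 are drawn at 0.01. Each panel has its own axis; the control mean lies near the Jun mean for Cftr and Nfkbie and above both other means for Id3, Eng and P2rx7.

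Across the 65 genes the mean of the controls lay between the Jun and Egr1 means in 52. Of the 16 genes higher with Jun, the controls were nearer to Egr1 in 14. Of the 49 higher with Egr1, they were nearer to Jun in 27 and nearer to Egr1 in 22. Against the controls in the same fit, 140 genes differed with Jun (0.965%) and 47 with Egr1 (0.324%), and 23 and 14 of the 65 were among them. The 65 were called with the same Jun and Egr1 libraries, so these comparisons are not independent.

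Lists of genes known to respond to either factor both had members in both directions. An unadjusted p under 0.05 was found for 41.7% of the AP-1 list and 36% of the Egr1 list, beside 11.9% of all tested genes. The Jun and Egr1 libraries did not overlap in 41.7 and 36% of these lists, beside 17.7% of all tested genes. Over all genes each tested, edgeR called 0.448% and DESeq2 2.46%. Of 24 tested reported AP-1 targets, Mmp10 was called by edgeR, 14 had a difference above 0 and 10 below, and the list's median log2 difference was 0.05 beside 0.00 over all tested genes. Ptgs2, cyclooxygenase 2, stood at 520.1, 545 and 521 CPM with Jun and 298, 368 and 426 CPM with Egr1, without overlap, and did not pass the edgeR test (adjusted p = 0.208). Il11, a cytokine on the same list, lay the other way at 3.16, 3.71 and 4.73 CPM against 8.87, 6.62 and 6.54 CPM (adjusted p = 0.0697). DESeq2 called 3 members of the list higher with Jun and 1 higher with Egr1, Ptgs2 and Il11 among them. Of 25 tested reported Egr1 targets, 2 were called by edgeR, Id3 and Gadd45b, both higher with Egr1, 12 had a difference above 0 and 13 below, and the median was -0.04. DESeq2 called 2 higher with Jun and 5 higher with Egr1. Gadd45b, a stress-response gene, stood at 37.01, 38.1 and 32.3 CPM with Egr1 and 24.5, 24.2 and 25.7 CPM with Jun (log2 -0.53, SE 0.0911, adjusted p = 0.0224, called in 3 of 9). Ptges, prostaglandin E synthase, also on that list, was higher with Jun at 115, 125 and 115 CPM against 94.5, 94.98 and 106 CPM and missed the threshold (adjusted p = 0.0566).

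For growth factor and stress lists the background is all tested genes, of which edgeR called 0.11% higher with Jun and 0.338% higher with Egr1. DESeq2 called 2.46% of the genes it tested. An unadjusted p under 0.05 was found for 11.9% of all tested genes. That share was 48.3% on the TGF-beta and BMP list, 30.8% on the p53 list and 33.3% on the contractile and focal adhesion list. These lists were chosen with earlier results of these data known. Of 29 tested TGF-beta and BMP response genes, 3 were called higher with Egr1, Klf10, Id3 and Eng, and 0 higher with Jun. Klf10, a TGF-beta-inducible repressor, stood at 85.2, 85.99 and 71.1 CPM with Egr1 and 55.9, 54.2 and 56.9 CPM with Jun (log2 -0.54, SE 0.0656, adjusted p = 0.00214). On this list 8 members had an unadjusted p under 0.05 higher with Jun and 6 higher with Egr1, and DESeq2 called 6 and 3. Of 26 tested p53 targets, Pmaip1 and Eda2r were higher with Egr1, and 7 had an unadjusted p under 0.05 in that direction against 1 in the other. DESeq2 called 4 of them, all higher with Egr1. Contractile and focal adhesion targets of SRF, the serum response factor, had 0 of 33 members called by edgeR, 11 at an unadjusted p under 0.05, all higher with Jun, and a median of 0.11. DESeq2 called 3 of them, Actg1, Ccn2 and Tagln. Among the 33, Acta2, smooth muscle actin, stood at 126, 119.5 and 131 CPM with Jun and 91.5, 101 and 100.1 CPM with Egr1, and Ccn1, a matricellular protein, at 94.5, 106 and 98.4 CPM against 53.6, 63.1 and 84.6 CPM (adjusted p = 0.364 and 0.36). In Ccn1, as in Ptgs2, replicate 3 was the Egr1 library nearest to Jun.

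No Hedgehog gene passed the test. By edgeR, 0 of 16 tested Hedgehog targets and 0 of 38 tested pathway components were called, with 1 and 2 at an unadjusted p under 0.05, and DESeq2 called 0 of both lists. The Jun and Egr1 libraries did not overlap in 3 of the 16 targets (18.8%) and 7 of the 38 components (18.4%), beside 17.7% of all tested genes. Gli1, the standard readout of the pathway, stood at 2.57, 2.59 and 3.28 CPM with Jun and 2.22, 3.16 and 2.52 CPM with Egr1 (log2 0.09, SE 0.245, adjusted p = 0.925), and its sign changed without Egr1 replicate 1 (log2 -0.01) or Jun replicate 3 (log2 -0.03). Ptch1, the Hedgehog receptor, stood at 28.2, 26.9 and 27.3 CPM against 24.9, 26.8 and 25.3 CPM (log2 0.10, SE 0.0642, adjusted p = 0.593), and the groups did not overlap. Smo, the signal transducer, stood at 253, 256.4 and 257 CPM against 247, 236 and 253 CPM, narrowly without overlap, Gli2 at 16.9, 14.9 and 16.1 CPM against 13.9, 15.2 and 14.1 CPM, and Gli3 at 35.8, 36.3 and 39.9 CPM against 35.3, 34.9 and 37.01 CPM. These p-values do not show that the levels were equal.

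Egr1 replicate 3 differed from the other libraries in epithelial genes and in many pseudogenes. Krt7, a keratin of simple epithelia, stood at 4.61, 4.302 and 164 CPM in Egr1 replicates 1 to 3 and 1.87, 0.952 and 1.13 CPM with Jun. Krt18, a second such keratin (88.6% unique 31-mers), stood at 2.16, 2.07 and 106 CPM and 0.582, 0.131 and 0.485 CPM. In all, 80 genes reached 5 CPM in this library at over 5 times every other one of the 9, of which 60 are annotated pseudogenes and 20 protein-coding. Of the 80, 0 were called by edgeR (64 at an unadjusted p under 0.05, 10 called by DESeq2). Over all tested genes the last 2 shares were 11.9% and 2.46%. The 80 were chosen for their level in this Egr1 library, so these counts are not independent of that choice. Of 16 tested epithelial genes, 0 were called by edgeR and 2 by DESeq2, 12 had an unadjusted p under 0.05 and all 16 had a difference below 0, with a median of -2.48. Their median was -1.004 over 17 tested genes without replicate 3, where 2 were called, Krt7 (log2 -1.75) and Esrp1, an epithelial splicing factor (log2 -3.80), each higher with Egr1. Both stood at a few CPM or less in the remaining Egr1 libraries. Whether other cells or sequences in this library bear on the comparison was not tested.

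**Figure D4:**
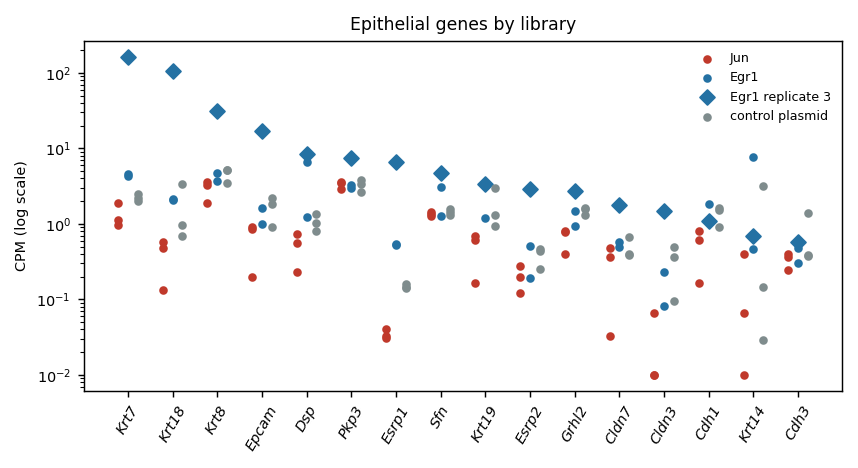
CPM (log scale, vertical axis) of the 16 tested epithelial genes (horizontal axis) in the Jun (red), Egr1 (blue) and control (grey) libraries, with 1 point per library and Egr1 replicate 3 as a diamond; values under 0.01 are drawn at 0.01. The diamond lies far above the other points for Krt7, Krt18, Krt8 and Epcam.

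The spread of log2 differences over 10288 genes (SD between pairs of libraries) was 0.241 to 0.243 between replicate 3 and the other Egr1 libraries. It was 0.195 between replicates 1 and 2 and 0.160 to 0.169 among the Jun libraries. Among the controls it was 0.2187 to 0.2605, a range that includes the values of replicate 3. Leaving replicate 3 out kept 60 of the 65 calls. The 5 lost were Hrnr, Baz1a, Prx, Rnd3 and Bcam, all higher with Egr1, with adjusted p of 0.0524, 0.0524, 0.0557, 0.0559 and 0.0524. The 59 genes gained, 14 higher with Jun and 45 higher with Egr1, all had the same sign with every library in the fit.

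Stress and growth arrest genes were among those gained on the Egr1 side, and the genes of this paragraph were named after their values were seen. Ddit3, the stress factor CHOP, stood at 65.8, 56.1 and 44.1 CPM in Egr1 replicates 1 to 3 and 38.99, 39.5 and 41.5 CPM with Jun (log2 -0.61 without replicate 3, adjusted p = 0.00138). Cdkn1a, the p21 cell cycle inhibitor, stood at 256.1, 237 and 199 CPM against 172, 196 and 185 CPM (log2 -0.42, adjusted p = 0.00995). Relb, an NF-kB subunit, stood at 28.8, 23.96 and 23.4 CPM against 19.02, 20.3 and 19.8 CPM (log2 -0.42, adjusted p = 0.0369). In each of them replicate 3 was the Egr1 library nearest to Jun. All genes of this paragraph were taken from those called only without replicate 3. The position of replicate 3 is therefore not independent of that choice. On the Jun side, Itga2, a collagen-binding integrin, stood at 8.94, 9.94 and 9.46 CPM with Jun and 4.35, 4.38 and 6.41 CPM with Egr1 (log2 1.11, adjusted p = 0.0139). Ccn2, a matricellular protein, stood at 59.3, 56.1 and 51.7 CPM against 38.5, 38.04 and 51.1 CPM (log2 0.54, adjusted p = 0.0111), again with replicate 3 nearest to Jun. Ptges was called as well (log2 0.32, adjusted p = 0.0134).

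**Figure D5:**
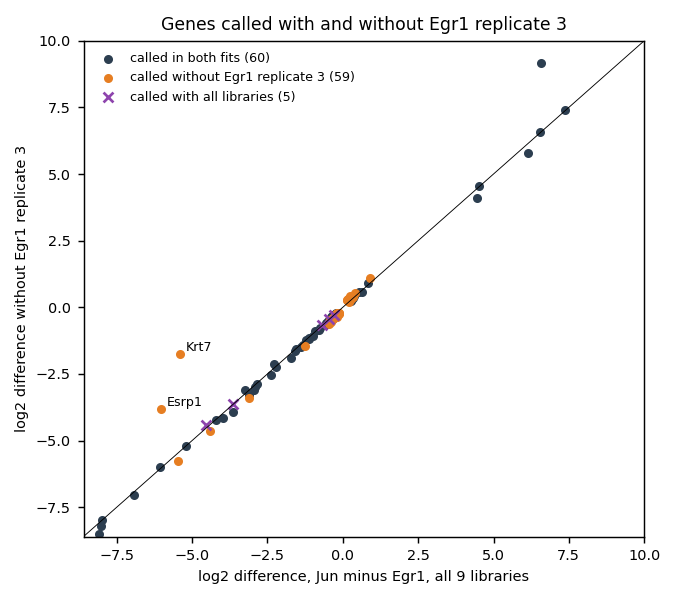
Log2 difference (Jun minus Egr1) without Egr1 replicate 3 (vertical axis) against that with all 9 libraries (horizontal axis) for the 60 genes called in both fits, the 59 called only without the replicate and the 5 called only with it, each point 1 gene. Points lie close to the line of equal values except Krt7 and Esrp1, which are labelled, and Mmp10 at the upper right.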

How the data were processed

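Per the submitters' processing notes, the authors quantified transcripts with kallisto 0.43.0 against mm10; the annotation release, strand and read layout are not given in the sources used here. The deposited files give estimated counts and TPM per transcript, computed by the authors. Of 118491 targets, 116816 matched GENCODE M21, and estimated counts were summed over 36047 genes and rounded. Unmatched targets held 0.656 to 0.685% of a library and were left out.

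The 9 Jun, Egr1 and control libraries were fitted with edgeR 4.0.16 in R 4.3.3 (robust quasi-likelihood test, TMM, filterByExpr at 10 counts and a total of 15, group means, prior count 0.125, two-sided). A gene was called at a Benjamini-Hochberg adjusted p under 0.05. Standard errors (SE) derive from the F statistic. DESeq2 1.42.0 and limma 3.58.1 on log2(TPM + 1), where the mean TPM reached 1, were alternatives, beside other scalings, filters, sets of libraries and each library left out. In 1 simulation of 14508 genes, 50 genes each were changed 1.5-, 2-, 3- and 4-fold. The fit recovered 72, 76, 82 and 84% of them and called 13 unchanged genes over the whole run. No simulated library was made to differ from its group, unlike Egr1 replicate 3 in the data.

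Named genes are the delivered factors, up to 15 a side with the largest called change (protein-coding, 5 CPM or more in the higher group, libraries that do not overlap, no predicted name), up to 6 called members of each list, and uncalled members of the AP-1, Egr and Hedgehog lists; others are said to be named after their values were seen. The members and lists were chosen with earlier results of these data known. Genes described with their CPM values have the share of unique 31-mers printed where it is under 90%. Among genes only listed, the share was 39.5% for Gm7361, 61% for Actg1 and 45.5% for Fosl1. Promoter windows come from RefSeq (GRCm38.p6). They were first searched for TGANTCA and GCGNGGGCG; the narrower words were chosen after those counts had been seen, and both are reported.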

Additional observations from a re-analysis of the deposited data

How the results depend on the processing

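Scaling and filters moved the 65 calls to between 54 and 87. Other choices moved them further. With the 6 Jun and Egr1 libraries alone, 129 genes were called (40 higher with Jun, 89 with Egr1, 26 list members against 11). With all 30 libraries in the fit there were 100 (79 higher with Egr1, 19 list members). DESeq2 called 414 (142 and 272, 48 list members) and limma on log2(TPM + 1) called 10 (4 and 6, 4 list members). Leaving out 1 library gave 17 to 141 calls (3 to 49 higher with Jun, 14 to 92 with Egr1, 5 to 26 list members). Without Egr1 replicate 3 in a fit of the Jun and Egr1 libraries alone, a setting chosen after seeing the data, 540 were called (219 and 321, 97 list members). The cause of these shifts was not tested. With the replicate number as a block, 34 were called (6 and 28) and 9 list members. Same-numbered libraries had deviations correlated at -0.22 to 0.04 (9 pairs, 0 over 0.1), so the numbers were not taken to pair them. Libraries of different groups and different numbers were correlated at -0.09 to 0.26 (18 pairs, 6 over 0.1). The log2 difference of Jun ranged from 4.48 to 4.62 and that of Egr1 from -3.04 to -2.80. All 65 called genes kept their direction in each setting that tested them. Of 124 genes followed across these settings, 10 that edgeR did not call changed sign. With 1 library left out, the log2 difference ran from -0.33 to 0.28 for Fos, -0.55 to 0.020 for Mmp3, -0.031 to 0.062 for Tgfb1, -0.051 to 0.085 for Gas1, -0.0055 to 0.064 for Jund, -0.026 to 0.25 for Gli1, -0.012 to 0.12 for Fosl1 and -0.0011 to 0.072 for Fn1. Without Egr1 replicate 3 and the controls it was 0.27 for Fos, 0.019 for Mmp3, -0.033 for Tgfb1, -0.053 for Gas1 and -0.0076 for Jund. On log2(TPM + 1) it was 0.078 for Fos, -0.021 for Tgfb1, -0.028 for Fosl1, 0.065 for Egr2 and -0.085 for Cdon, and with library totals only -0.0064 for Gas1. Depth limits the 24 calls under 5 CPM: the lower group held fewer than 10 counts in 14 of them, and 0 to 141 over all 24.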

Other observations

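The direction of the difference went with the level of the gene. Below a mean of 1 CPM, 58.6% of 2414 tested genes were higher with Egr1, as were 61.7% of 1806 genes at 1 to 5 CPM. At 100 CPM or more the share was 35.7% of 2408 genes. Genes with at least 10 counts numbered 14291 to 14637 in the Egr1 libraries and 13381 to 13929 in the Jun libraries. In the controls they numbered 13637 to 14761, a range that includes the Egr1 values and overlaps those with Jun. Egr1 replicate 3 had the most of the 6, although 2 of the Jun libraries were deeper.

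Of 44 tested replication and mitosis genes 41 had a difference above 0, with a median of 0.09, and 0 were called by edgeR or DESeq2 (4 at an unadjusted p under 0.05). Without Egr1 replicate 3 the median was 0.15, and 0 were called by edgeR. In that fit 24 of the 44 had an unadjusted p under 0.05, all higher with Jun. Among all 14973 genes tested in it, 1008 had such a p higher with Jun and 1054 higher with Egr1. Of 35 tested nuclear respiratory chain genes 26 had a difference below 0, with a median of -0.05, and 0 were called by edgeR and 1 by DESeq2, Sdhd (7 at an unadjusted p under 0.05). These values are given without explanation.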
